A study of Mus musculus with 6 samples.

Results

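The heat shock chaperones are proteins that help other proteins fold, refold and assemble. The genes described here are 35 members of the cytosolic and mitochondrial chaperone families with their co-chaperones and the transcription factors Hsf1 and Hsf2, chosen by symbol. All 35 were among the 55802 gene symbols measured, and all 35 passed the filter on low counts that left 17662 genes for testing. RNA was sequenced from liver of male C57BL/6 mice reared for 71 weeks at 18 to 22 degrees Celsius. The tested animals ate chow containing PS-MP, plastic particles of polystyrene (3 libraries), and the controls ate normal chow (3 libraries). No label states how large the particles were or how much was eaten. Nothing in the labels ties each library to an animal of its own, so the p-values reflect variation among these libraries, part of which may be technical.

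Chaperones of the Hsp70 family bind exposed hydrophobic stretches of unfolded proteins and release them in a cycle driven by ATP. J-domain proteins (the Dnaj genes) deliver clients and trigger ATP hydrolysis, and nucleotide exchange factors such as the Hsp110 and Bag proteins reset the cycle. Hsp90 acts later, on kinases and steroid receptors that are almost folded, with the aid of co-chaperones such as Stip1, Ahsa1 and Fkbp4. Small heat shock proteins hold unfolded proteins without using ATP. When unfolded proteins accumulate, the factor HSF1 is freed from chaperones, forms trimers and binds heat shock elements, which are alternating repeats of GAA and TTC in the promoters of its targets. In mouse liver several of these genes also follow the daily rhythm of feeding and body temperature. The members were sorted from textbook knowledge into 12 inducible genes, which heat induces, 21 mainly constitutive genes and 2 regulators. Earlier results of these data were known when they were sorted. The level in these livers did not define the classes. The split is arguable, and a wider inducible list of 20 genes adds Hspa8, Hspd1, Hspe1, Hsp90ab1, Stip1, Ahsa1, Fkbp4 and Hspa4l.

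PS-MP libraries held 79081889, 79317092 and 79691824 counts, and control libraries held 75897165, 68357478 and 112566641. The members took 0.344%, 0.380% and 0.410% of the counts in PS-MP and 0.341%, 0.323% and 0.344% in control. Ribosomal RNA of the gene Rn18s-rs5 took 1.14%, 0.599% and 0.387% of the counts in PS-MP and 2.92%, 11.2% and 1.15% in control, with PS-MP replicate 1 just under control replicate 3. The members' share was smallest in control replicate 2, where ribosomal RNA was highest. How far ribosomal RNA sets these shares was not tested. The levels below are CPM, counts relative to library size on the TMM scale (trimmed mean of M values), which does not depend on a few abundant genes. The 8 hepatocyte markers, Alb and Ttr among them, summed to 68576 to 87390 CPM in PS-MP and 66386 to 75771 CPM in control, as a liver label implies. In bulk tissue, fewer cells of a type and less RNA per cell cannot be told apart.

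Heat shock elements were looked for in the promoters of the members. RefSeq promoter windows (build GRCm38.p6, 300 bases that span an annotated start) were at hand for 28 of the 35 members, all but Hsf1, Hspa8, Hspa9, Hspa13, Cryab, Hsp90aa1 and Hsp90ab1. The heat shock element was searched as 2 units (GAANNTTC or TTCNNGAA) and as 3 units (GAANNTTCNNGAA or TTCNNGAANNTTC, which contain the shorter ones), on both strands. A match of 2 units stood in a window of 9 of 10 inducible members and 5 of 17 constitutive members, 14 of 28 in all, against 17.0% of the 27025 genes in the table. A match of 3 units stood in 5 members (17.9%), against 0.662% of all genes. A gene counted if any of its windows held a match. The members counted are not all independent, since Hspa1a and Hspa1b are near copies and exons of Hspd1 and Hspe1 overlap. A match describes letters, not binding. The 5 windows below are shown because they hold the element at the genes on which the results turn: the almost identical Hspa1a and Hspa1b, both far apart between libraries, then Hsph1 and Chordc1 with 3 units or more, and Hspe1, a constitutive gene. Capitals mark every match of 2 units.
Hspa1a: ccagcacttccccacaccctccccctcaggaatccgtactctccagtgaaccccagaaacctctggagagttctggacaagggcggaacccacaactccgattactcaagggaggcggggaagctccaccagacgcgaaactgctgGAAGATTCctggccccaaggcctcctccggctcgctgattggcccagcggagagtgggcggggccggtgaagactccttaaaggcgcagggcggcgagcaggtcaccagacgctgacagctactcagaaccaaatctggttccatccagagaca
Hspa1b: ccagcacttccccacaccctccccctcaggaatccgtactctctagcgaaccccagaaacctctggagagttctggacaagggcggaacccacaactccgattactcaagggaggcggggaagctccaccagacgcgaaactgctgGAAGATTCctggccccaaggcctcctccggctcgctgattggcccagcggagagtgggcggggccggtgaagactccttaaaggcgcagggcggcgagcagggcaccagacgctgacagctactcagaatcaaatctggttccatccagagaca
Hsph1: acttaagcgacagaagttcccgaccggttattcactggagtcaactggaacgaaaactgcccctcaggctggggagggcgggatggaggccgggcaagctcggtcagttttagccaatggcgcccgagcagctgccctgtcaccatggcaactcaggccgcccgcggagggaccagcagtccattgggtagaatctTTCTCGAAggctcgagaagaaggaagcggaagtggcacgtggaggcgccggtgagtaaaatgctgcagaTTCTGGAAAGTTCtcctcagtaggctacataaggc
Chordc1: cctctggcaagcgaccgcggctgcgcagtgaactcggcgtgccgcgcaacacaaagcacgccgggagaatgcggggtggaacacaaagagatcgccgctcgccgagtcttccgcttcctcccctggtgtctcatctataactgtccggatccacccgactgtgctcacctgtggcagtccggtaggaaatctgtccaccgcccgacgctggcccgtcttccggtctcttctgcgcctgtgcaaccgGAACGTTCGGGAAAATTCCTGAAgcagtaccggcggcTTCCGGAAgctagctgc
Hspe1: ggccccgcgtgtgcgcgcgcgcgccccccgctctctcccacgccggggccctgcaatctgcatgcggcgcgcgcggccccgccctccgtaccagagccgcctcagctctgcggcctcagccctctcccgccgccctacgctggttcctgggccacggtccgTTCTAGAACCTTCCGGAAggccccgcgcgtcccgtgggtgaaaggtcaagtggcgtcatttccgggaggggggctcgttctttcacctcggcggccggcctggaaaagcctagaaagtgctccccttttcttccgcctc
The Hspa1a window lies at chr17:34972107-34972406 and the Hspa1b window at chr17:34959189-34959488, both on the minus strand. They are equal at 296 of 300 bases (98.7%) and hold their match at the same place, with its first base at -104 from the start. The Hsph1 window (chr5:149636266-149636565, minus strand) holds matches at -54, 15 and 20, of which the last 2 overlap. Chordc1 (chr9:18292017-18292316, plus strand) has 5 matches, 4 of them overlapping in a run that begins at -4. The window of Hspe1 (chr1:55087898-55088197, plus strand) holds a run of 3 overlapping matches from -89, and a window of Hspd1, the neighbouring gene read from the opposite strand, holds a match of 3 units too. Dnajb1 was the inducible member whose windows held no match.

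No chaperone gene passed the test between diets. With p adjusted over all genes tested, the quasi-likelihood test in edgeR called 0 of the 35 members, where 0.0113% of all genes were called. At an unadjusted p under 0.05 it had 0 of 35 members, where the share of all genes was 5.38% (2.8% higher and 2.58% lower). DESeq2 also called 0 members, where it called 1.06% of all genes, and limma-voom 0, where it called 0.00566%. Both had 0 members at an unadjusted p under 0.05, where the shares of all genes were 6.29% with DESeq2 and 6.05% with limma-voom. The log2 fold changes of the members, PS-MP over control, ran from -0.59 for Hspb1 to 0.25 for Dnajb4, with a median of -0.066 against 0.017 over all genes tested. Of the members 24 lay below zero and 11 above, where 47.2% of all genes lay below and 52.8% above. That direction rests on the scaling: with library size alone the median of all genes moved to 0.232, that of the members to 0.144, and 5 members lay below zero.

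For most members the intervals left out changes of 2-fold or more. For 28 of the 35 members (80.0%) the 95% interval of the log2 fold change lay inside a 2-fold change in either direction, a share that was 53.6% over all genes. The share was 20 of 21 constitutive members and 7 of 12 inducible members. The members whose intervals reached past 2-fold were Hspa1a, Hspa1b, Hspb1, Hsp90aa1, Hsph1, Hspa13 and Hsf2. The diets did not overlap for 1 member, Dnajb5, which was lower, where 4.99% of all genes were lower without overlap and 6.24% higher. Dnajb5, a J-domain protein, had 3.29, 3.23 and 3.29 CPM in PS-MP and 3.77, 3.37 and 3.82 CPM in control, and its log2 fold change was -0.16 (95% interval -0.58 to 0.26). Its separation was lost with upper quartile scaling, with no filter on low counts and with library size alone, where its log2 fold change was 0.05.

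**Figure D1:**
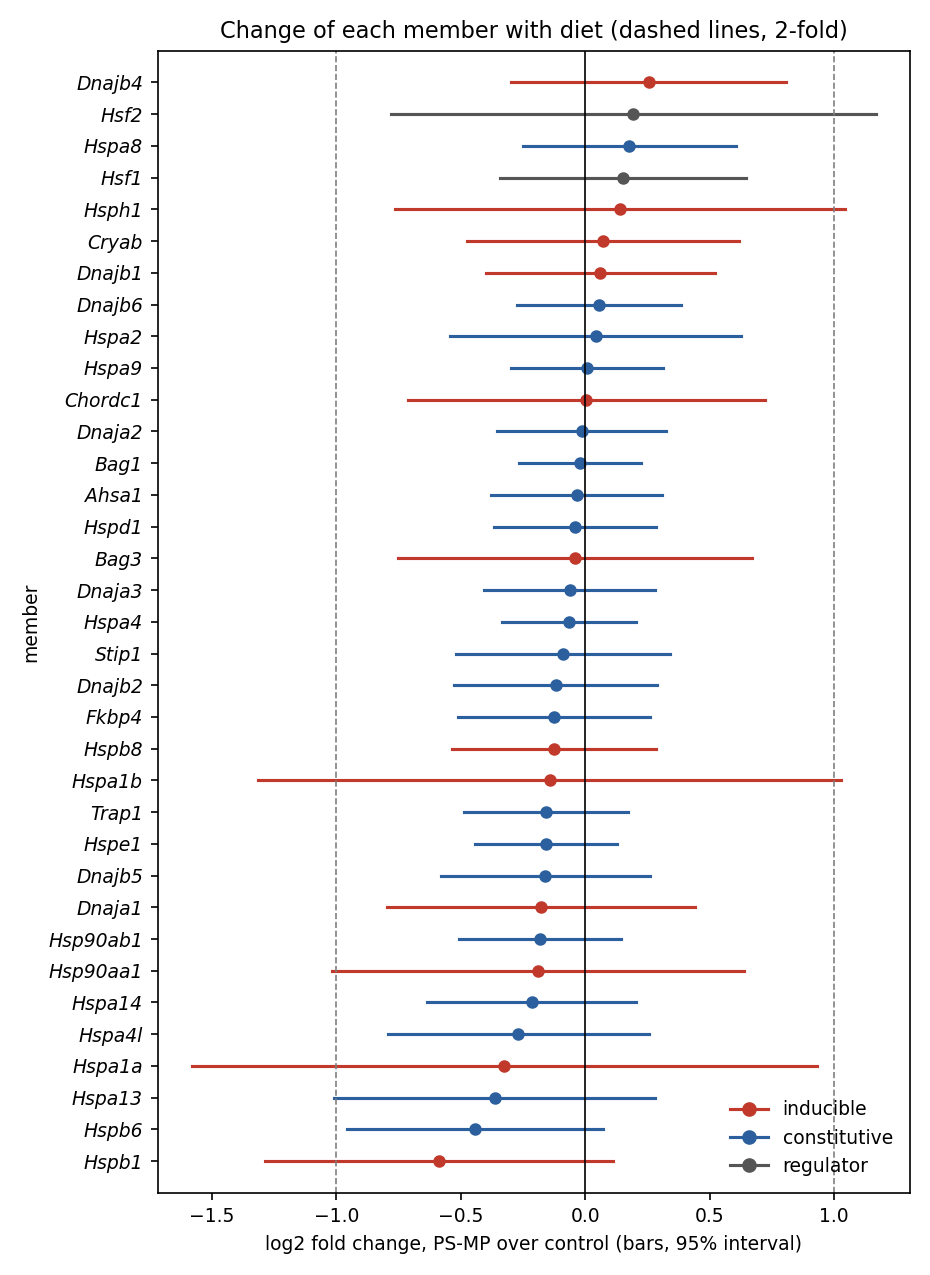
Log2 fold change of each member, PS-MP over control, with its 95% interval from edgeR (3 libraries per diet), coloured by class. Every interval spans zero, and the intervals of 28 members stay between the dashed lines at 2-fold.

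The regulators were measured at low levels. Hsf1, the main factor of the heat shock response, had 10.5, 9.34 and 14.8 CPM in PS-MP and 10.6, 10.6 and 10.04 CPM in control. PS-MP replicate 3 was the highest of the 6 libraries and PS-MP replicate 2 the lowest, so the diets overlapped (log2 fold change 0.15, interval -0.34 to 0.64). Hsf2, a related factor that can form complexes with HSF1, had 6.30, 12.9 and 13.3 CPM in PS-MP and 8.65, 14.0 and 5.82 CPM in control (log2 fold change 0.19, interval -0.78 to 1.17). It spanned 2.40-fold over the libraries, with 1 library of each diet at the low end.

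The inducible Hsp70 genes Hspa1a and Hspa1b spanned the widest range of all members. Hspa1a had 58, 128 and 243 counts or 0.704, 1.45 and 2.84 CPM in PS-MP, against 155, 167 and 147 counts or 2.13, 2.74 and 1.39 CPM in control. Hspa1b had 2.29, 3.92 and 8.51 CPM in PS-MP and 5.52, 6.85 and 3.89 CPM in control. For both genes PS-MP held the lowest library (replicate 1) and the highest (replicate 3), 4.03-fold apart for Hspa1a and 3.71-fold for Hspa1b, with the controls between. The log2 fold changes were -0.32 (SE 0.52, interval -1.58 to 0.93) and -0.14 (SE 0.49, interval -1.31 to 1.03). The copies cannot be separated with confidence, since 62.3% of the 50-base windows of an Hspa1b transcript also occur in Hspa1a. With their counts summed, a setting added after the data were seen, the log2 fold change was -0.19 (interval -1.37 to 0.99, edgeR adjusted p = 1). Without PS-MP replicate 3 the values of Hspa1a and Hspa1b were -0.97 and -0.81 (smallest unadjusted p over all settings 0.0843 and 0.0714).

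Several inducible members with other roles had the same library on top. Hsph1, an Hsp110 protein and exchange factor of Hsp70, had 13.8, 13.7 and 33.5 CPM in PS-MP and 19.3, 21.0 and 15.2 CPM in control. Bag3, which links Hsp70 to autophagy, had 18.7, 17.8 and 35.5 CPM in PS-MP and 29.3, 23.4 and 21.5 CPM in control. Dnajb1, the J-domain partner of inducible Hsp70, had 16.5, 17.1 and 25.05 CPM in PS-MP and 19.2, 18.1 and 19.0 CPM in control. In each of these genes PS-MP replicate 3 stood above all 3 controls, while PS-MP replicates 1 and 2 stood below all 3. The means were 20.3 ± 11.4 CPM and 18.5 ± 2.99 CPM for Hsph1, 24.0 ± 9.99 CPM and 24.7 ± 4.02 CPM for Bag3, and 19.6 ± 4.77 CPM and 18.7 ± 0.584 CPM for Dnajb1, in PS-MP and control (SD, n = 3 each). Their log2 fold changes were 0.14 (SE 0.38), -0.04 (SE 0.30) and 0.06 (SE 0.19), and without PS-MP replicate 3 they were -0.44, -0.45 and -0.17.

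Hsp90aa1, the inducible Hsp90, had 49.7, 67.6 and 103 CPM in PS-MP and 56.5, 115 and 80.1 CPM in control. Control replicate 2 was the highest library here and PS-MP replicate 1 the lowest (log2 fold change -0.19, interval -1.02 to 0.64). Dnaja1, a J-domain protein of the cytosol, had 88.4, 162 and 148 CPM in PS-MP and 119.8, 176 and 154 CPM in control. Chordc1, a co-chaperone of Hsp90, had 12.8, 19.3 and 25.2 CPM in PS-MP and 14.9, 24.8 and 17.3 CPM in control. Both again had their lowest value in PS-MP replicate 1, and their log2 fold changes were -0.18 (SE 0.26) and 0.00 (SE 0.30). Dnajb4, another J-domain protein, departed from this order, with its highest value, 27.7 CPM, in PS-MP replicate 2 and 14.6 to 21.2 CPM in the other libraries. Reads of Hsp90aa1 may be shared, as 58.5% of its 50-base windows occur in transcripts of other genes, most of them in Gm12346.

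**Figure D2:**
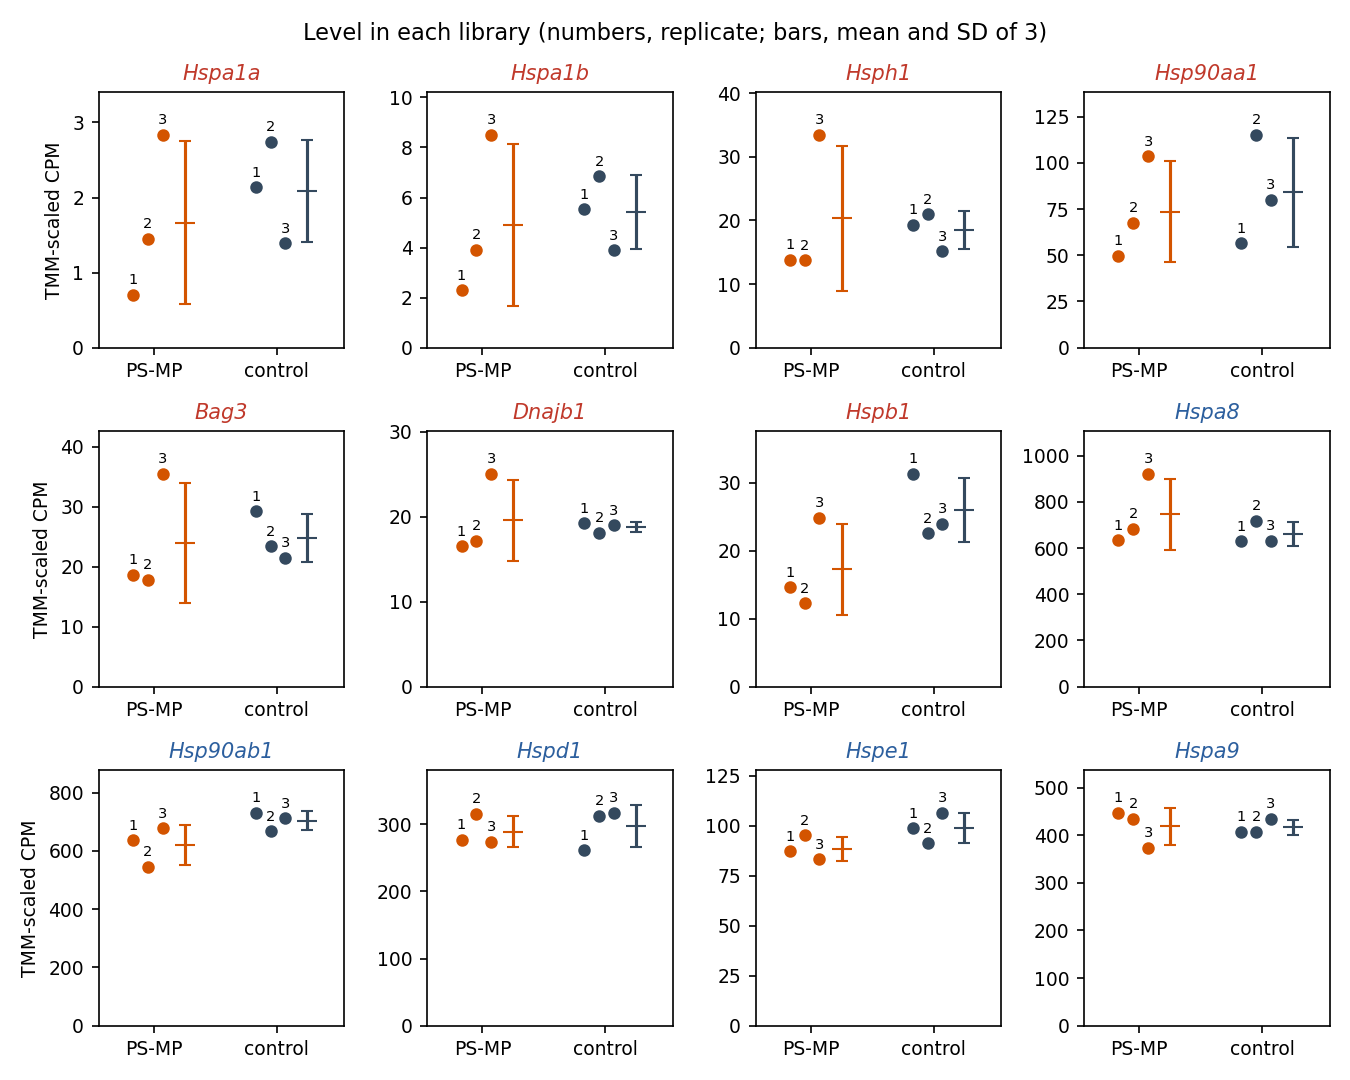
Level of 12 members in TMM-scaled CPM in each library, PS-MP left of control, with points numbered by replicate and bars for mean and SD (n = 3). Hspa1a, Hspa1b, Hsph1, Bag3 and Dnajb1 reach their highest value in PS-MP replicate 3, and the mitochondrial genes Hspd1, Hspe1 and Hspa9 stay within a narrow band.

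Hspb6 and Hspb1, both small heat shock proteins, had the lowest unadjusted p of the members. Hspb1, which also protects the actin skeleton, had 14.7, 12.3 and 24.9 CPM in PS-MP and 31.4, 22.6 and 24.0 CPM in control. PS-MP replicates 1 and 2 lay below all controls and replicate 3 among them (log2 fold change -0.59, SE 0.29, interval -1.29 to 0.11, edgeR adjusted p = 0.931). Hspb6, known from muscle, had 16.6, 13.2 and 14.2 CPM in PS-MP and 25.5, 15.5 and 18.8 CPM in control (log2 fold change -0.44, SE 0.21, interval -0.96 to 0.07, edgeR adjusted p = 0.927). The overlap of its diets came from PS-MP replicate 1 and control replicate 2. Leaving out PS-MP replicate 3 gave Hspb1 a log2 fold change of -0.96, and leaving out control replicate 2 gave Hspb6 -0.60. Both had an unadjusted p under 0.05 there, as had 6.78% and 9.13% of all genes. The smallest adjusted p that any setting gave was 0.546 for Hspb1 and 0.511 for Hspb6.

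Hspb8, the partner of Bag3, had 120.3, 120.0 and 118 CPM in PS-MP and 151, 99.9 and 139.9 CPM in control, so the PS-MP libraries lay inside the range of the controls. Cryab, the lens and muscle crystallin, had 2.13 to 2.76 CPM in PS-MP and 1.90 to 2.68 CPM in control. Markers of the muscle and surface cells in which small heat shock genes are also active were counted beside them. Of 10 markers of smooth and skeletal muscle, the skeletal genes Acta1, Ckm, Myh4 and Tnnt3 had 0 counts in all 6 libraries. By total counts, without TMM scaling, this allows at most 0.0439 CPM in the shallowest. All 10 summed to 11.8 to 23.2 CPM in PS-MP and 14.0 to 14.8 CPM in control. Of the 6 tested, the smooth muscle genes Cnn1 and Actg2 were higher in PS-MP without overlap, as were 6.24% of all genes. Cnn1 had 37, 18 and 52 counts in PS-MP and 0, 5 and 6 in control, and Actg2 47, 18 and 36 against 13, 8 and 0. Both were near the floor and passed the filter on low counts through PS-MP, so their separation carries little weight. The 6 mesothelium markers summed to 5.80 to 7.72 CPM in PS-MP and 1.997 to 7.85 CPM in control, and the 7 markers of stellate cells and fibroblasts to 260.1 to 361 CPM in PS-MP and 327 to 337 CPM in control. Msln, a mesothelium gene, was also higher without overlap. The 3 sums overlapped between diets, and their part in the levels of Hspb1, Hspb6, Hspb8 and Cryab was not tested.

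The constitutive chaperones of the cytosol include the steadiest members. Hspa8, the constitutive Hsp70 that also uncoats clathrin vesicles, had 634, 684 and 922 CPM in PS-MP and 631, 718 and 632 CPM in control. PS-MP replicate 3 was again the highest, 1.46-fold above the lowest library (log2 fold change 0.18, interval -0.25 to 0.61). Hsp90ab1, the constitutive Hsp90, had 638, 546 and 679 CPM in PS-MP and 732, 667 and 713 CPM in control. Only PS-MP replicate 3 reached into the control range, and the log2 fold change was -0.18 (interval -0.51 to 0.15). Hspa4, an Hsp110 protein like Hsph1, stayed between 82.9 and 97.1 CPM over the 6 libraries, 1.17-fold apart.

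Among less abundant Hsp70 relatives, Hspa13, a short member linked to microsomes, had 14.7, 19.0 and 15.3 CPM in PS-MP and 13.8, 27.9 and 21.4 CPM in control. It was the constitutive member with the widest range, 2.03-fold, and its log2 fold change was -0.36 (interval -1.01 to 0.28). This rested on single controls, with -0.11 without control replicate 2 and -0.59 without control replicate 1. In the latter its diets did not overlap, as for 19.6% of all genes. Its unadjusted p was under 0.05 there, as for 4.62% of all genes. Hspa4l had -0.27 (SE 0.22) and Hspa14, which acts at the ribosome, -0.22 (SE 0.18). Hspa2, a gene best known from the testis, was detected at 1.6 to 1.94 CPM in PS-MP and 1.47 to 2.12 CPM in control. None of these genes kept the diets apart.

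Stip1, Fkbp4 and Ahsa1 are the co-chaperones of Hsp90 among the constitutive members. Stip1, which bridges Hsp70 and Hsp90, had 39.6, 36.1 and 55.0 CPM in PS-MP and 48.8, 45.2 and 45.1 CPM in control. Fkbp4, an immunophilin of steroid receptor complexes, had 98.7, 87.5 and 124 CPM in PS-MP and 123, 104 and 111 CPM in control. Ahsa1, which speeds the ATPase of Hsp90, had 52.1, 51.4 and 67.0 CPM in PS-MP and 59.9, 55.1 and 59.6 CPM in control. All 3 genes were highest in PS-MP replicate 3 and lowest in PS-MP replicate 2, and their log2 fold changes were -0.09, -0.12 and -0.03. The remaining J-domain and Bag proteins moved little: Dnaja2 had a log2 fold change of -0.01, Dnajb2 -0.12, Dnajb6 0.06 and Bag1, a binder of Hsp70 and growth receptors, -0.02. Bag1 had the narrowest range of all members, 79.9 to 84.9 CPM in PS-MP and 80.8 to 86.1 CPM in control.

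The mitochondrial chaperones import and fold the proteins of the matrix, and these 5 members spanned 1.2-fold to 1.33-fold over the libraries. Hspd1, the Hsp60 chaperonin, had 277, 316 and 274 CPM in PS-MP and 262, 313 and 317 CPM in control. Its lid Hspe1, or Hsp10, had 87.4, 95.2 and 83.3 CPM in PS-MP and 98.9, 91.2 and 107 CPM in control. Hspa9, the Hsp70 of the import motor, had 447, 434 and 374 CPM in PS-MP and 408, 407 and 434 CPM in control. The diets overlapped for all 5, and their intervals lay inside a 2-fold change: -0.36 to 0.28 for Hspd1, -0.44 to 0.13 for Hspe1 and -0.30 to 0.31 for Hspa9. For Trap1, the mitochondrial Hsp90, the log2 fold change was -0.16 (-0.49 to 0.17), and for Dnaja3, the J-domain partner of Hspa9, -0.06 (-0.41 to 0.28). PS-MP replicate 3, on top for many inducible genes, was the lowest library for Hspe1 and Hspa9.

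Inducible members differed between libraries more than constitutive members did, with the diets overlapping for all 12. The highest library stood a median of 1.99-fold above the lowest for the 12 inducible members and 1.33-fold for the 21 constitutive members, against 1.92-fold over all genes tested and 1.6-fold over the 11118 genes in the members' range of mean CPM. A range above 2-fold was found for 5 inducible members (41.7%), 1 constitutive member (4.76%), 47.2% of all genes tested and 29.3% of the genes in the members' range. Within diets the median SD of log2 CPM of inducible members was 0.511 in PS-MP and 0.274 in control. All genes had 0.285 and 0.315, and the genes in the members' range of mean CPM had 0.224 and 0.243. Low genes vary more from counting. How far level sets these spreads was not tested, so the figures describe the classes and do not test them.

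**Figure D3:**
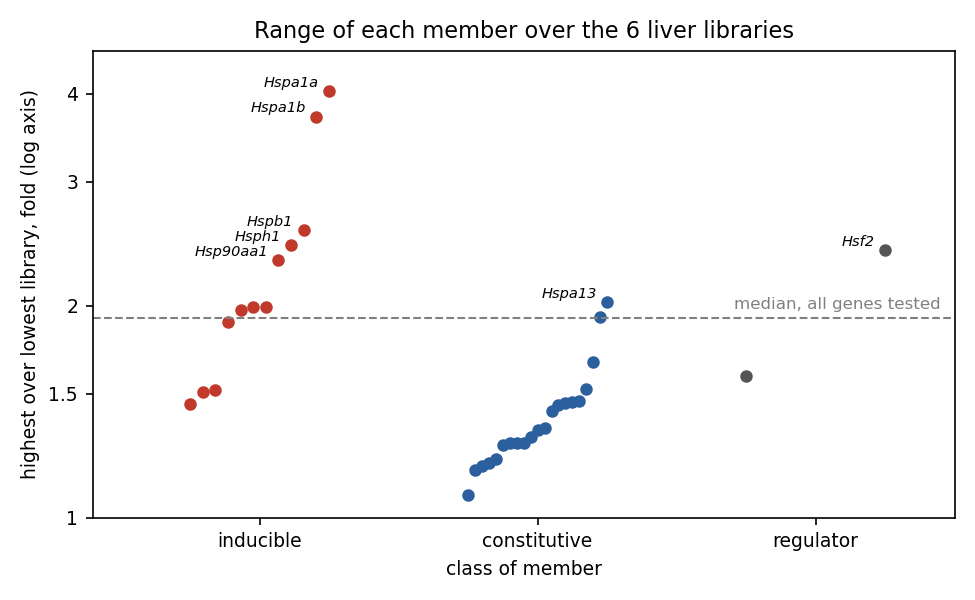
Highest over lowest library for each of the 35 members by class, as fold on a log axis, with the median of all genes tested as a dashed line. Of the inducible members, Hspa1a and Hspa1b reach 4.03-fold and 3.71-fold, while all constitutive members but Hspa13 stay under 2-fold.

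PS-MP replicate 3 was the library most often on top for inducible members. It held the highest value of the 6 libraries for 6 of 12 inducible members and 5 of 21 constitutive members (23.8%), where it held it for 14.4% of all genes tested. PS-MP replicate 1 held the lowest value for 6 inducible members, where it held it for 13.3% of all genes. As the mean deviation of log2 CPM from each gene's own mean, the inducible class stood at -0.452, -0.130 and 0.370 in PS-MP and 0.041, 0.179 and -0.008 in control. The constitutive class stood at -0.093, -0.052 and -0.011 in PS-MP and 0.016, 0.062 and 0.078 in control. The PS-MP values of the inducible class thus lay on both sides of all controls, while those of the constitutive class lay below all controls by a small margin on this scaling. With library size alone the median log2 fold change of the constitutive class was 0.121, against -0.089.

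**Figure D4:**
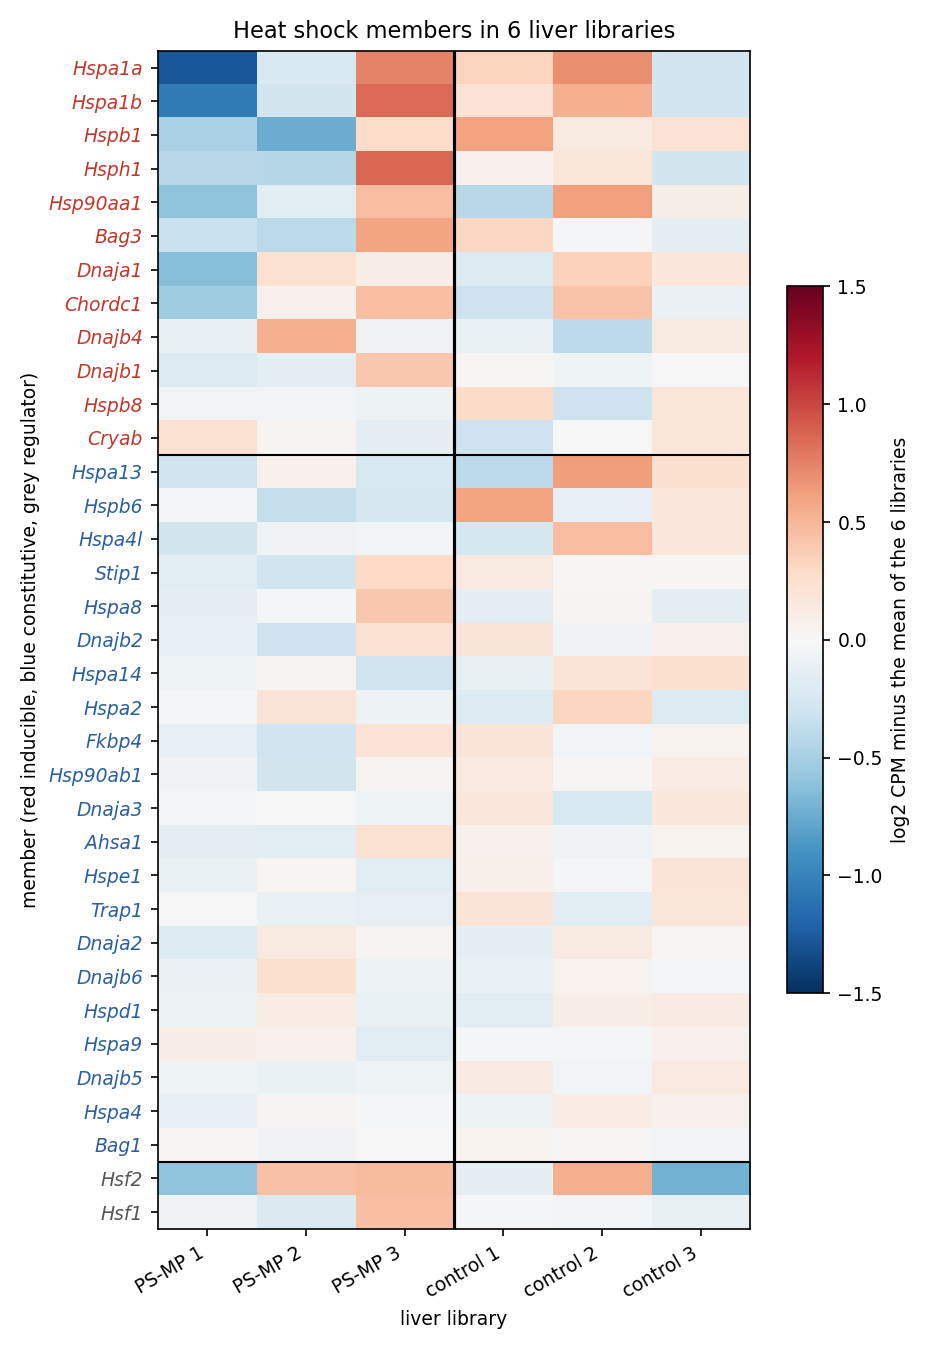
Log2 CPM of each member minus its mean over the 6 libraries, PS-MP left of control, with inducible members on top, then constitutive members and regulators. Hspa1a and Hspa1b are lowest in PS-MP replicate 1 (4.03-fold and 3.71-fold under the highest library), and Hspa1a, Hspa1b and Hsph1 are highest in PS-MP replicate 3.

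Set against each other within a library, inducible and constitutive members did not part by diet. Mean log2 CPM of the inducible class minus that of the constitutive class was -1.96, -1.68 and -1.23 in PS-MP and -1.58, -1.49 and -1.69 in control. Gene length enters these values, so only the libraries can be compared. The means were -1.62 ± 0.373 in PS-MP and -1.59 ± 0.102 in control (SD, n = 3 each), a difference of -0.037 that was smaller than either SD. Leaving out PS-MP replicate 3 made the difference -0.237, and leaving out PS-MP replicate 1 made it 0.133. The median log2 fold change of the inducible class was -0.084 with all libraries, -0.356 without PS-MP replicate 3 (10 of 12 below zero) and 0.081 without PS-MP replicate 1 (3 of 12 below zero). For the wider inducible list it was -0.106 with all libraries, with 14 of 20 below zero and 0 called by edgeR, DESeq2 or limma-voom. Without PS-MP replicate 3 the diets did not overlap for 11 of the 35 members, Dnajb5 among them, all lower in PS-MP. The share of all genes lower without overlap in those 5 libraries was 11.3%. PS-MP replicate 3 was the highest library for many of these members, such as Hsph1, Bag3 and Stip1. Leaving it out therefore lowers PS-MP for them by construction, and the count is no evidence of a difference between diets.

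Clock genes varied between the same libraries. Dbp, a clock output gene that swings widely over the day in liver, had 35.7, 78.2 and 0.911 CPM in PS-MP and 2.01, 2.23 and 44.3 CPM in control. Per1 had 14.8, 23.8 and 1.32 CPM in PS-MP and 15.5, 5.01 and 3.90 CPM in control, and Arntl, which encodes BMAL1, had 3.96, 1.33 and 8.14 CPM in PS-MP and 11.9, 13.1 and 3.37 CPM in control. Of 13 clock genes measured, 0 were called by edgeR, DESeq2 or limma-voom. Among them 1, Per2, was higher at an unadjusted p under 0.05, as were 2.8% of all genes. Clock was lower in PS-MP without overlap, as were 4.99% of all genes. It had 11.0 to 13.4 CPM in PS-MP and 14.9 to 38.4 CPM in control. PS-MP replicate 3, the highest library of the inducible class, had the lowest Dbp, and PS-MP replicates 1 and 2, its lowest libraries, had high Dbp. Control replicate 3 had high Dbp too, yet its inducible class stood at -0.008. That was near control replicates 1 and 2 (0.041 and 0.179), where Dbp was low. Cirbp, which is induced by cold and follows body temperature in the opposite sense to heat shock genes, had 17.2, 9.29 and 7.39 CPM in PS-MP and 9.21, 9.03 and 6.45 CPM in control. Rbm3, likewise induced by cold, had 32.7, 52.4 and 25.6 CPM in PS-MP and 24.0, 38.4 and 34.5 CPM in control. The labels state no hour of sampling, and the part of the clock in the chaperone levels was not tested.

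**Figure D5:**
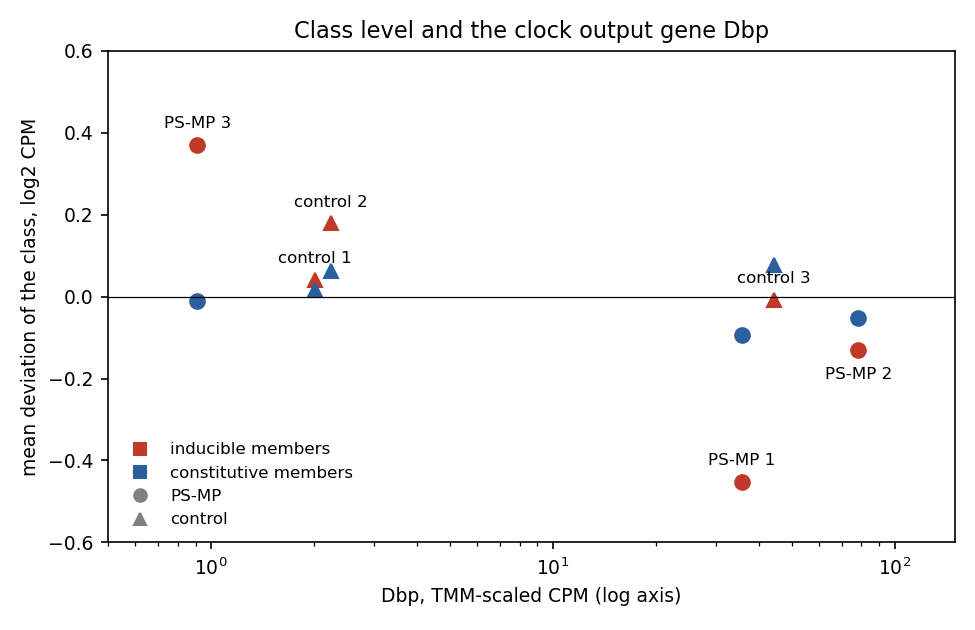
Mean deviation of log2 CPM of the inducible (red) and constitutive (blue) members in each library against the level of Dbp in CPM on a log axis, with circles for PS-MP and triangles for control. The inducible class is at 0.370 in PS-MP replicate 3, where Dbp is 0.911 CPM, and at -0.452 in PS-MP replicate 1, where Dbp is 35.7 CPM. In control replicate 3, where Dbp is 44.3 CPM, it is at -0.008.

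Other values moved between these libraries too. The 12 immediate early genes respond to handling and stress within minutes. They summed to 109 to 162 CPM in PS-MP and 92.8 to 102 CPM in control. The sum of 162 CPM was that of PS-MP replicate 1, where Zfp36 alone had 92.2 CPM. Of their log2 fold changes 11 of 12 were above zero, where 52.8% of all genes were. Of the 12 genes 0 passed with edgeR, DESeq2 or limma-voom (0 at an unadjusted p under 0.05 with edgeR). Only Ier3 kept the diets apart, being higher in PS-MP, as were 6.24% of all genes. The 5 erythroid markers summed to 571 to 848 CPM in PS-MP and 263 to 504 CPM in control, with the highest sum in PS-MP replicate 3. The 6 macrophage markers summed to 88.1 to 105 CPM in PS-MP and 60.4 to 84.8 CPM in control, and 4 of them were higher without overlap, as were 6.24% of all genes. Adgre1 of the macrophage list and Hbb-bs and Hbb-bt of the erythroid list were higher at an unadjusted p under 0.05, as were 2.8% of all genes. By edgeR 0 genes of both lists were called. Of the erythroid list only the globin genes Hbb-bs and Hbb-bt kept the diets apart. The diets overlapped for Hba-a1, Hba-a2 and Alas2, and Alas2 had a log2 fold change of -0.07. The 3 sums did not overlap between diets. With each immediate early gene weighted equally the diets overlapped, as that list's mean deviation of log2 CPM was 0.279, -0.139 and 0.363 in PS-MP and -0.121, -0.063 and -0.318 in control. The part of these genes in the chaperone levels was not tested.

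The wider chaperone network was examined by lists of related genes. Of 30 further co-chaperones of Hsp70 and Hsp90, edgeR called 0, with 1 lower at an unadjusted p under 0.05, and DESeq2, which called 1.06% of all genes, called 1, while limma-voom called 0. That gene was Unc45a, a co-chaperone of Hsp90 for myosin, at 1.27, 1.053 and 3.34 CPM in PS-MP and 8.69, 5.50 and 5.30 CPM in control. Unc45a was lower without overlap, as were 4.99% of all genes, and its log2 fold change was -1.78 (edgeR adjusted p = 0.805, DESeq2 adjusted p = 0.0409). Bag6, of the sorting of tail-anchored proteins, had a log2 fold change of 0.92 and Dnajc9, a histone chaperone, one of -0.27, and neither was called. The 15 genes of the chaperonin TRiC and of prefoldin had a median log2 fold change of 0.003 with 0 calls by edgeR, DESeq2 or limma-voom. Tcp1, a subunit of TRiC, was higher in PS-MP without overlap, as were 6.24% of all genes. It had 95.6 to 99.4 CPM in PS-MP against 79.1 to 85.5 CPM in control (log2 fold change 0.24, edgeR adjusted p = 0.923). Pfdn2, a subunit of prefoldin, had a log2 fold change of -0.51 (edgeR adjusted p = 0.921) and was the list's only gene at an unadjusted p under 0.05.

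The 14 mitochondrial import and protease genes had a median log2 fold change of -0.029, with 0 calls by edgeR, DESeq2 or limma-voom and 0 at an unadjusted p under 0.05. Clpx, the unfoldase of the ClpXP protease, had the widest change there, -0.82 (edgeR adjusted p = 0.982), and spanned 4.81-fold over the libraries. All 10 chaperones of the endoplasmic reticulum lay below zero, with a median of -0.123, yet 0 were called by edgeR, DESeq2 or limma-voom and 0 had an unadjusted p under 0.05. With library size alone the median of all genes moves up by more than that. Hspa5, or BiP, had 279, 305 and 431 CPM in PS-MP and 295, 446 and 353 CPM in control, and Hsp90b1 had 313, 442 and 342 CPM in PS-MP and 264, 497 and 382 CPM in control. Pdia4 and Pdia6, which form disulfide bonds, were lower in PS-MP without overlap, as were 4.99% of all genes. Their log2 fold changes were -0.26 and -0.34 (edgeR adjusted p = 0.923 for both).

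Of 12 other genes that HSF1 can induce, edgeR and limma-voom called 0 and DESeq2, which called 187 of all genes, called 1, Hmox1. At an unadjusted p under 0.05 edgeR had 1 of the 12, also Hmox1. Hmox1, the haem oxygenase that answers oxidative stress as well as heat, had 20.0, 18.1 and 17.5 CPM in PS-MP and 12.1, 10.8 and 12.3 CPM in control. It was higher without overlap, as were 6.24% of all genes (log2 fold change 0.66, edgeR adjusted p = 0.767, DESeq2 adjusted p = 0.00877). Serpinh1, the collagen chaperone Hsp47, was lower without overlap, as were 4.99% of all genes. It had 5.36 to 5.82 CPM in PS-MP and 5.83 to 6.47 CPM in control, a log2 fold change of -0.13.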

How the data were processed

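Liver RNA was selected for poly(A) tails and turned into strand-specific libraries, per the labels' protocols. Reads were handled with bcl2fastq and genome build GRCm39, per the submitters' processing notes. Aligner, counter, gene models and strand option: not given in the sources used. The deposited files hold unnormalised whole-number read counts per gene symbol, which were used as deposited. Each file lists 56674 rows, and 67 symbols listed more than once, none of them a member, were summed.

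Counts were analysed with R 4.3.3. Low counts were removed by filterByExpr in edgeR 4.0.16, which left 17662 genes. Counts were scaled by TMM, and all 6 libraries entered the quasi-likelihood test in edgeR, whose model held diet alone. Benjamini-Hochberg adjustment ran across the 17662 genes. A log2 fold change is PS-MP minus control, and their 95% intervals use the standard error (SE) and 6.63 moderated degrees of freedom. Log2 CPM for class means used a prior count of 2. The ranges of levels cover spread between libraries, and the limit on a count of 0 (3 counts) covers counting error only. Alternatives were other scalings and filters, DESeq2 1.42.0, limma-voom (limma 3.58.1), the replicate number as a block, removal of Rn18s-rs5 and leaving out each library.

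Promoter windows are those of RefSeq for GRCm38.p6, and sharing of 50-base windows was computed between the transcripts of an annotation of that build (GENCODE M21), so no coordinate was carried to GRCm39. By that annotation 9 members have exons that overlap a gene on the opposite strand, and without the strand setting such reads cannot be told apart. Hspa8 (73.2% of its windows), Hspb1 (51.6%), Hspd1 (44.8%), Hspe1 (36.1%) and Dnajb6 (35.8%) share windows with other genes, mostly pseudogenes, so their levels are uncertain.

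The members, the classes and the other gene lists were chosen with earlier results of these data known. Every member may be named. The rule gave full values to 13 members whatever their values and to those whose diets did not overlap. Other members with a value for each library were chosen after their values were seen. Of each other list the 2 genes with the smallest p in each direction were eligible to be named. Genes named beside these, such as Serpinh1, Ier3, Dbp and Per1, were chosen after their values were seen. A gene that this rule made eligible is not reported here.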

Additional observations from a re-analysis of the deposited data

How the results depend on the processing

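With each of the alternatives run, 0 members passed over all genes, also at an adjusted p under 0.1, and the 28 members whose interval lay inside 2-fold numbered 25 to 31. Members at an unadjusted p under 0.05 numbered 0 with all libraries and diet alone in the model, and 0 to 2 with 1 library left out. They were Hspb1 without PS-MP replicate 3 (where 6.78% of all genes had such a p) and Hspa13 without control replicate 1 (4.62%). Without control replicate 2 they were Hspb6 and Hspb8 (9.13%). With the replicate block the number was 1, Hspb6, where the share of all genes was 5.35%. The labels do not say whether the replicate numbers pair the samples. Deviations of same-numbered libraries correlated at 0.108, 0.139 and -0.128, and those of unlike numbers at -0.185 to 0.097. With so few libraries these values cannot settle a pairing. With the block 0 of all genes were called and without it 2. Members whose diets did not overlap numbered 1 with all libraries, 4 with library size only (Hsf1, Hspa8, Dnajb6 and Bag1, all higher, where 19.1% of all genes did not overlap), 0 with upper quartile, 0 with no filter and 1 to 11 with 1 library left out, as fewer libraries overlap less. There were 2 without PS-MP replicate 1 (17.9% of all genes), 2 without PS-MP replicate 2 (20% of all genes), 11 without PS-MP replicate 3 (23.8%), 5 without control replicate 1 (19.6%) and 8 without control replicate 2 (29.2%). The median log2 fold change of the members, -0.066, was 0.144 with library size only and -0.170 to -0.021 with 1 library left out. Signs of single members are not stable: 19 of 35 changed sign with library size only, 2 with upper quartile, 1 each with the 1 CPM filter, limma-voom and the block, and 4 to 9 with 1 library left out. Why these values moved was not tested. Depth limits Hspa1a most, with 58 counts in its lowest library.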

Other observations

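Ratios of counts between related members within a library do not depend on scaling, and they overlapped between diets for all 8 pairs computed. Hsp90aa1 stood to Hsp90ab1, the inducible to the constitutive Hsp90, at 0.0780, 0.124 and 0.153 in PS-MP and 0.0773, 0.173 and 0.112 in control. Hsph1 stood to Hspa4, both Hsp110 proteins, at 0.167, 0.148 and 0.378 in PS-MP and 0.226, 0.216 and 0.162 in control. Bag3 stood to Bag1 at 0.220, 0.223 and 0.432 in PS-MP and 0.340, 0.280 and 0.266 in control. In the last 2 pairs PS-MP replicate 3 stood apart from the other 5 libraries, at the high end. Hspd1 stood to Hspe1, which are read in opposite directions from a shared region, at 3.26 ± 0.0767 in PS-MP and 3.02 ± 0.392 in control (SD, n = 3 each). Gene length and shared reads enter the level of each ratio.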
